A study of Mus musculus with 12 samples.

Results

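The 10 genes described here are *Trp53*, *Mdm2*, *Cdkn1a*, *Ccng1*, *Phlda3*, *Trp53inp1*, *Aen* and the family of *Gadd45a*, *Gadd45b* and *Gadd45g*, that is the mouse p53 gene, a set of its known target genes and the 3 *Gadd45* genes. They were taken by exact gene name from a table of 55487 genes, each matched 1 row, and all 10 passed the filter on low values that kept 16471 genes for testing. Expression was measured by RNA-seq of poly(A) RNA from mouse retina in 12 libraries, 2 for each of 6 groups. C57BL/6J wild-type (WT) retinas, retinas infected with an AAV2.7m8 vector that expresses a short hairpin RNA against *Pax6* and GFP (shPax6), and retinas of *Jnk3*-/- mice (JNK3-KO) received an injection into the eye of 1 µL of PBS or of 1 µL of 40 mM NMDA, that is 40 nmol. NMDA, an agonist of glutamate receptors, is used to kill retinal ganglion cells (RGCs) by excitotoxicity, and the comparison asks how suppression of PAX6 or loss of JNK3 alters the response. The study's text gives an age of 2 months for the mice of the shPax6 experiment and more than 3 retinas for each library. The study calls its RNA-seq replicates biological, and whether the 2 libraries of a group came from different animals is not given in the sources used here, so p-values measure the spread between these libraries. The hairpin is expressed from a U6 promoter in whichever cells the vector infects, and no library here received the scrambled hairpin, so infection and knockdown cannot be told apart. The JNK3-KO mice carry the mutation in all cells, and which part of the gene is deleted is not given in the sources used here.

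p53 is a transcription factor that is stabilised after DNA damage and other stress, and it binds paired copies of a short degenerate DNA element, a decamer, near its target genes. MDM2 is the ubiquitin ligase that degrades p53 and is itself a p53 target, which closes a negative feedback loop. The products of the other target genes stop the cell cycle, restrain growth signalling or promote apoptosis. The GADD45 proteins are small stress-induced proteins that bind the kinase MAP3K4 upstream of p38 and JNK, and also bind PCNA and cyclin B with CDK1. *Gadd45a* is the family member best known as a p53 target, whereas *Gadd45b* and *Gadd45g* are known for induction by cytokines, growth factors and neuronal activity.

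Promoter sequences are printed for the *Gadd45* family because its 3 members moved together in 2 of the 3 genotypes, in which *Trp53*, *Phlda3* and *Aen* rose as well. *Phlda3* and *Aen* were also called as higher in the other genotype, JNK3-KO. After a correction for transcript length, given below, *Gadd45a* was not called in any genotype. Sequences are RefSeq's for GRCm38.p6, written 5′ to 3′ on the gene's strand, with matches to 10 searched motifs in capitals. The stretch for *Gadd45a* lies at chr6:67037458-67037657 on the minus strand, that for *Gadd45b* at chr10:80929841-80930072 on the plus strand, and that for *Gadd45g* at chr13:51846425-51846674 on the plus strand, and each ends before the first exon of GENCODE M21.
Gadd45a promoter: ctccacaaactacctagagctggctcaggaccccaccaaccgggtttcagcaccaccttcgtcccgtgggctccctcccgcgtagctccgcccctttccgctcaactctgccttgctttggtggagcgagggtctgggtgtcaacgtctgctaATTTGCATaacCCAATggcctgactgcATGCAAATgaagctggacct
Gadd45b promoter: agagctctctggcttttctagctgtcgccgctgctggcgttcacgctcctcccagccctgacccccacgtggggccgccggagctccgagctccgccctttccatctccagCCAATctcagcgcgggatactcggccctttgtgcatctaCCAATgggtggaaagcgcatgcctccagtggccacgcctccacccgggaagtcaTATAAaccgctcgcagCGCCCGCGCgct
Gadd45g promoter: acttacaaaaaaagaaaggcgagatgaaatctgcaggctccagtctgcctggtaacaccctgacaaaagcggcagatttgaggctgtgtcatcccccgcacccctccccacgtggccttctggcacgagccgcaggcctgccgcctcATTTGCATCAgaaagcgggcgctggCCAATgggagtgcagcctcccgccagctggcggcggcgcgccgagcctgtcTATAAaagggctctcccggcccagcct
In *Gadd45a* the capitals mark the octamer ATTTGCAT on both strands and CCAAT between the copies. In *Gadd45b* they mark the CCAAT box, the TATA box TATAA and, on the other strand, the EGR element GCGNGGGCG. In *Gadd45g* they mark an octamer that overlaps TGATGNAA, a C/EBP-ATF element read on the other strand, followed by the CCAAT and TATA boxes. Windows of 250 bases before to 50 after the start were given for 9 of the 10 genes, with none for *Trp53inp1*. Of all 32851 windows, 1.74% held the octamer, 37.4% the CCAAT box, 24.9% the TATA box, 5.55% the EGR element and 3.97% the C/EBP-ATF element, each searched on both strands. The AP-1 element TGACTCA and the cyclic AMP response element TGACGTCA, in 5.20% and 1.79% of all windows, were in none of the 9 genes. The FOXO element GTAAACA was found in *Mdm2* and the NF-κB element in *Trp53*, against 3.65% and 1.47% of all windows.

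The p53 decamer was found in 6 of the 9 genes with a window (*Trp53*, *Mdm2*, *Cdkn1a*, *Ccng1*, *Gadd45a* and *Aen*), against 8.36% of all windows. Most of the 10 genes were chosen as known p53 targets, so a high share is not independent evidence. *Cdkn1a* and *Aen* had a further window, so genes are set here against windows. These matches are printed with 10 bases on each side and the decamer in capitals. Because p53 binds paired copies of the decamer, a lone match is not a full site. Only exact matches were searched, so an inexact second copy beside a match stands in lower case. The 10 bases that follow the second *Cdkn1a* decamer depart from the searched pattern only at the first base.
Trp53 decamer, chr11:69580274-69580303, plus strand: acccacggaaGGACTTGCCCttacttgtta
Mdm2 decamer, chr10:117710925-117710954, minus strand: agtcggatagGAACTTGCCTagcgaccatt
Cdkn1a first decamer, chr17:29090896-29090925, plus strand: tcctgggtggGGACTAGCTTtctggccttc
Cdkn1a second decamer, chr17:29090918-29090947, plus strand: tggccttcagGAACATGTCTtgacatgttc
Ccng1 decamer, chr11:40755452-40755481, minus strand: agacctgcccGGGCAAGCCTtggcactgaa
Gadd45a decamer, chr6:67037428-67037457, minus strand: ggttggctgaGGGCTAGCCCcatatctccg
Aen decamer, chr7:78895927-78895956, plus strand: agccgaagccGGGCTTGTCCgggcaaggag
The stretches of *Gadd45a* and *Aen* lie in an annotated exon of the gene. A match is a description of letters, and binding of p53 was not measured in these libraries.

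The genes the study targeted were read first. *Pax6* had 173.48 and 177.3 FPKM in WT retinas given PBS, against 94.56 and 92.84 FPKM in the shPax6 PBS libraries (log2 difference -0.90, SE 0.07, limma adjusted p = 6.04e-05). *Mapk10*, which encodes JNK3, was listed at 42.79 and 50.72 FPKM in WT PBS against 9.47 and 8.75 FPKM in JNK3-KO PBS libraries, so that it was lower but not at 0 (log2 difference -2.34, SE 0.36, limma adjusted p = 0.0215), and it was also at 8.98 and 6 FPKM in the WT NMDA libraries. The labelled tissue was checked by 8 rod markers, which summed to between 21173 and 36938 FPKM in every library. With NMDA 6 of the 8 were higher and 2 lower without overlap in WT, and all 8 were lower in shPax6 and in JNK3-KO. The WT NMDA libraries stood apart: their gene FPKM summed to 805627 and 820180, against 541210 to 576922 in the other 10, and their NMDA response fell with transcript length (Spearman's rho of -0.56 across 16443 genes, against -0.17 in shPax6 and 0.23 in JNK3-KO). The median log2 response in WT was 1.03 for genes with spliced transcripts under 1 kb and -1.17 for those over 4 kb. Of the genes called in WT 43.5% were higher, against 21.4% on TPM and 51.8% once a trend of level on spliced length was taken out of each library, so values of the 10 genes are given with that correction where it changes a call. TPM, which rescale every library to the same sum, moved the median log2 response of all genes in WT from -0.09 to -0.66, and the calls of the 10 genes that changed with TPM or quantile normalization are named below. RGC markers summed to 677 to 699 FPKM in WT PBS and 451 to 475 in WT NMDA, to 215 and 80.2 to 95.2 in shPax6, and to 649 to 693 and 188 to 189 in JNK3-KO libraries. Of the 12 RGC markers, 9 were lower with NMDA without overlap in WT, 9 in shPax6 and 12 in JNK3-KO, and in WT they did not move alike. *Nefl*, a neurofilament gene, was at 162.46 and 160.25 FPKM in WT PBS against 27.66 and 25.52 FPKM in WT NMDA libraries, *Thy1* overlapped at 142.02 and 144.87 against 135.95 and 153.62 FPKM, and *Stmn2* was higher, at 44.44 and 47.83 against 66.6 and 75.53 FPKM. The share of all genes that separate without overlap was not counted, and with 2 libraries a group such separation is weak evidence. In such bulk samples fewer cells of a type and less RNA per cell cannot be told apart.

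After NMDA in WT retinas, 7 of the 10 genes rose (*Trp53*, *Cdkn1a*, *Phlda3*, *Aen* and the 3 *Gadd45* genes) and 3 fell (*Mdm2*, *Ccng1* and *Trp53inp1*). At the same threshold, an adjusted p under 0.05 by limma over all genes, 59.8% of all tested genes were called, 26.0% as higher and 33.8% as lower. In shPax6 retinas 7 genes rose and none fell, against 30.2% of all genes called (19.1% as higher and 11.0% as lower), and in JNK3-KO retinas 6 rose and none fell, against 10.4% (4.33% as higher and 6.10% as lower). The median log2 difference of the 10 genes was 1.32 in WT, 0.62 in shPax6 and 0.38 in JNK3-KO retinas, beside medians over all genes of -0.09, 0.10 and -0.01. On TPM the WT differences of *Trp53*, *Aen* and *Gadd45a* were 0.39, 0.90 and 0.61 and those of *Mdm2* and *Ccng1* -0.87 and -1.05, and all 5 were called. The study itself picked *Gadd45b*, *Gadd45g* and *Phlda3*, as well as *Bax* and *Steap3* named further on, from these libraries and also names *Gadd45a*, so their calls are not independent evidence.

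**Figure D1:**
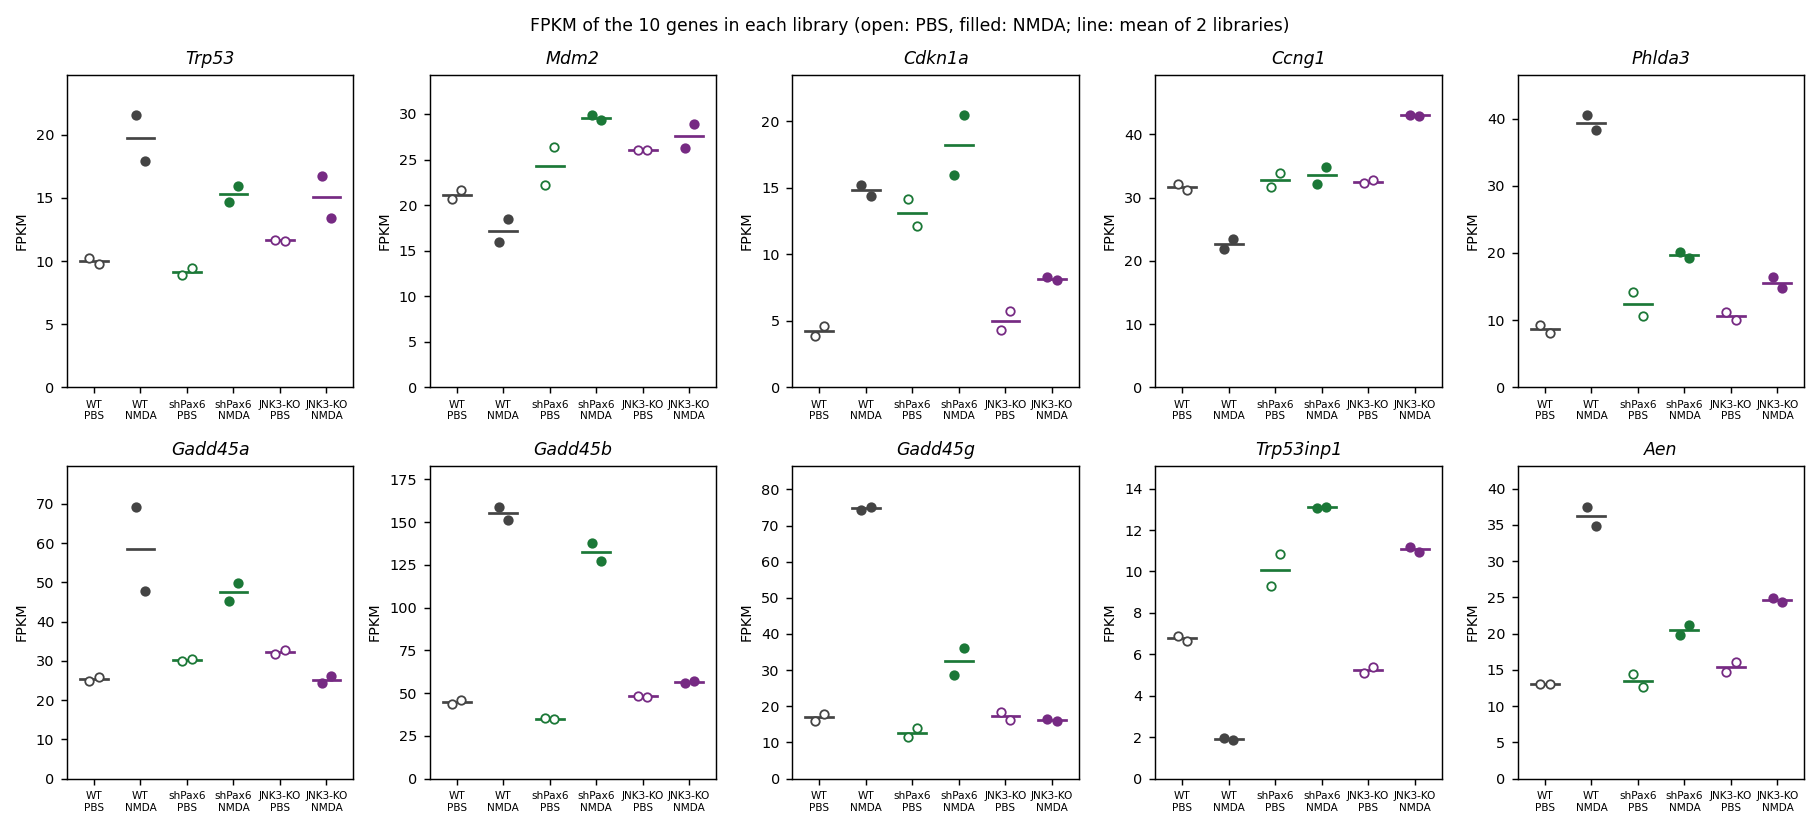
FPKM of each of the 10 genes (y axis, from 0, own scale per panel) in the 6 groups (x axis). Open points are PBS libraries, filled points NMDA libraries and lines the means of 2 libraries. *Gadd45g* stood at 74.25 and 75.25 FPKM in the WT NMDA libraries and at 16.49 and 16.0 FPKM in the JNK3-KO NMDA libraries.

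*Trp53* lies on chromosome 11 from 69580359 to 69591873. It was listed at 10.26 and 9.79 FPKM in WT PBS against 21.54 and 17.89 FPKM in WT NMDA libraries. In shPax6 libraries it stood at 8.88 and 9.44 FPKM with PBS against 14.65 and 15.95 FPKM with NMDA, and in JNK3-KO libraries at 11.68 and 11.59 and at 16.73 and 13.43 FPKM. NMDA libraries were above PBS libraries in all 3 genotypes, without overlap. The log2 difference was 0.96 in WT (SE 0.13, limma adjusted p = 0.000199) and 0.73 in shPax6 (SE 0.13, limma adjusted p = 0.00317). In JNK3-KO it was 0.36 with a 95% interval of 0.06 to 0.66, which did not pass the test (limma adjusted p = 0.128). A pseudogene named *Trp53-ps* was listed at 0.00 to 0.33 FPKM, and how reads shared by both copies were split is not known.

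*Mdm2* (chromosome 10, 117688875 to 117710758, minus strand) encodes the ligase that degrades p53. In WT it was at 20.66 and 21.62 FPKM with PBS against 15.92 and 18.45 FPKM with NMDA, so that it fell while *Trp53* rose. In shPax6 it was at 22.16 and 26.35 FPKM with PBS and 29.85 and 29.37 FPKM with NMDA, and in JNK3-KO at 26.09 and 26.06 FPKM and at 26.22 and 28.86 FPKM. The fall in WT was small (log2 difference -0.30, SE 0.11, limma adjusted p = 0.0357). It did not pass after the length correction (-0.10, limma adjusted p = 0.518), with quantile normalization (-0.25, limma adjusted p = 0.0809), without either WT PBS library, without WT NMDA replicate 1 or without either JNK3-KO PBS library (-0.33 to -0.19, limma adjusted p = 0.0526 to 0.203). The differences in shPax6 and JNK3-KO, 0.29 (95% interval 0.05 to 0.53, limma adjusted p = 0.0692) and 0.08 (95% interval -0.17 to 0.32, limma adjusted p = 0.743), were not called. Without shPax6 PBS replicate 2 the first became 0.42 and was called (limma adjusted p = 0.0263).

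*Cdkn1a*, on chromosome 17 from 29090976 to 29100727, encodes p21, the inhibitor of cyclin-dependent kinases through which p53 arrests the cell cycle. Its WT libraries were at 3.83 and 4.61 FPKM with PBS against 15.24 and 14.41 FPKM with NMDA, and its JNK3-KO libraries at 4.33 and 5.71 FPKM and at 8.31 and 8.05 FPKM. In shPax6 libraries it was already at 14.13 and 12.13 FPKM with PBS and reached 15.97 and 20.46 FPKM with NMDA. The shPax6 PBS libraries thus lay near the level of WT NMDA and above every other PBS library. The rise was 1.79 in WT (SE 0.18, limma adjusted p = 2.28e-05), which is a 3.47-fold difference on this scale, and 0.71 in JNK3-KO (SE 0.18, limma adjusted p = 0.0375). In shPax6 the difference was 0.46 (95% interval 0.06 to 0.87, limma adjusted p = 0.0812) and was not called.

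*Phlda3* and *Aen* encode an inhibitor of AKT membrane binding and a p53-induced exonuclease that takes part in apoptosis. *Phlda3* (chromosome 1, 135766119 to 135769136) was at 9.21 and 8.14 FPKM in WT PBS against 40.48 and 38.29 FPKM in WT NMDA libraries. In shPax6 it was at 14.17 and 10.63 FPKM with PBS and 20.17 and 19.27 FPKM with NMDA, and in JNK3-KO at 11.2 and 10.02 FPKM and at 16.35 and 14.7 FPKM. For *Phlda3* the NMDA libraries were above the PBS libraries of their genotype without overlap, and those of WT were the highest of the 12. *Aen* (chromosome 7, 78895854 to 78911209) was at 12.98 and 13.08 FPKM in WT PBS against 37.52 and 34.86 FPKM in WT NMDA libraries. Its shPax6 libraries were at 14.47 and 12.58 FPKM and at 19.79 and 21.12 FPKM, and its JNK3-KO libraries at 14.7 and 16.04 FPKM and at 24.94 and 24.37 FPKM. The log2 rise of *Phlda3* was 2.17 in WT, 0.68 in shPax6 and 0.55 in JNK3-KO (SE 0.14 each, limma adjusted p = 1.73e-06, 0.00659 and 0.0434). That of *Aen* was 1.47, 0.60 and 0.68 (SE 0.10 each, limma adjusted p = 1.70e-06, 0.00165 and 0.00291).

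*Ccng1* and *Trp53inp1* ran the other way in WT. *Ccng1* (chromosome 11, 40748552 to 40755311, minus strand) encodes cyclin G1, which acts in the feedback between p53 and MDM2. It was at 32.15 and 31.22 FPKM in WT PBS against 21.93 and 23.42 FPKM in WT NMDA libraries, but at 32.27 and 32.73 FPKM and then 43.03 and 42.99 FPKM in JNK3-KO libraries. In shPax6 it was at 31.69 and 33.92 FPKM with PBS and 32.19 and 34.85 FPKM with NMDA, which overlap. The log2 difference was -0.48 in WT (SE 0.07, limma adjusted p = 0.000336), 0.40 in JNK3-KO (SE 0.07, limma adjusted p = 0.00930) and 0.03 in shPax6 (95% interval -0.13 to 0.19, limma adjusted p = 0.793), where TPM, quantile normalization and the length correction gave -0.02, -0.10 and -0.04. After the length correction the WT value turned to 0.13 (limma adjusted p = 0.170), and the spliced length of this gene is 3512 bases.

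*Trp53inp1* (chromosome 4, 11156431 to 11174379) encodes a stress-induced nuclear protein that promotes p53 activity and autophagy, and with 5131 bases it has the longest spliced transcript of the 10. It fell in WT from 6.89 and 6.64 FPKM to 1.98 and 1.84 FPKM, and rose in JNK3-KO from 5.09 and 5.39 FPKM to 11.19 and 10.94 FPKM. In shPax6 it was at 9.3 and 10.82 FPKM with PBS and 13.06 and 13.13 FPKM with NMDA. The WT NMDA libraries were the lowest of the 12 and the shPax6 NMDA libraries the highest. The fall in WT was 1.77 on the log2 scale (log2 difference -1.77, SE 0.13, limma adjusted p = 2.78e-06) and -0.68 after the length correction, which was still called (limma adjusted p = 0.00178). The rise in JNK3-KO was 1.06 (SE 0.13, limma adjusted p = 0.00123). That in shPax6, 0.38 (SE 0.13, limma adjusted p = 0.0488), was lost in 9 of the 12 fits that left out 1 library, at 0.27 to 0.38 in those fits, and on TPM and with quantile normalization (0.33 and 0.24, limma adjusted p = 0.0955 and 0.203).

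The *Gadd45* genes rose in WT and shPax6 retinas, and in JNK3-KO retinas only *Gadd45b* was called, with a small rise. *Gadd45b* (chromosome 10, 80930073 to 80932204) was at 43.56 and 45.86 FPKM in WT PBS against 159.02 and 151.14 FPKM in WT NMDA libraries, and at 35.25 and 34.89 FPKM and then 137.71 and 126.99 FPKM in shPax6. In JNK3-KO it was at 48.56 and 47.4 FPKM with PBS and 55.66 and 57.25 FPKM with NMDA. The rise was 1.79 in WT and 1.91 in shPax6, against 0.23 in JNK3-KO (SE 0.06 each, limma adjusted p = 5.53e-08, 2.30e-07 and 0.0424). The length correction brought these to 1.06, 1.67 and 0.35 (limma adjusted p = 2.05e-06, 2.60e-07 and 0.00729), so that the WT value was then below that of shPax6. The JNK3-KO call was lost in 6 of the 12 fits that left out 1 library, with values of 0.21 to 0.25.

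*Gadd45g* (chromosome 13, 51846678 to 51848468) was at 16.02 and 17.83 FPKM in WT PBS against 74.25 and 75.25 FPKM in WT NMDA libraries. In shPax6 it was at 11.41 and 13.98 FPKM with PBS and 28.69 and 36.17 FPKM with NMDA, and in JNK3-KO at 18.43 and 16.27 FPKM and at 16.49 and 16.0 FPKM. Its rise was 2.14 in WT (SE 0.14, limma adjusted p = 1.43e-06) and 1.34 in shPax6 (SE 0.14, limma adjusted p = 0.000115). In JNK3-KO, where the groups overlap, the difference was -0.09 with a 95% interval of -0.40 to 0.22 (limma adjusted p = 0.763). The length correction brought the WT rise to 1.24, near the 1.10 of shPax6 (limma adjusted p = 7.69e-05 and 0.000313), and the JNK3-KO value was 0.04.

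*Gadd45a* (chromosome 6, 67035096 to 67037457, minus strand) was at 24.87 and 25.75 FPKM in WT PBS against 69.27 and 47.77 FPKM in WT NMDA libraries, the widest spread within a group among the 10 genes. In shPax6 it was at 29.86 and 30.5 FPKM with PBS and 45.16 and 49.88 FPKM with NMDA. In JNK3-KO it was at 31.81 and 32.63 FPKM with PBS and, lower without overlap, at 24.3 and 26.1 FPKM with NMDA. The rise was 1.18 in WT (SE 0.15, limma adjusted p = 9.29e-05) and 0.65 in shPax6 (SE 0.15, limma adjusted p = 0.00898). After the length correction they were 0.32 and 0.41 and neither passed the test (limma adjusted p = 0.103 and 0.0641), and without shPax6 NMDA replicate 2 the second was 0.58 (limma adjusted p = 0.0576). The JNK3-KO difference of -0.35 (95% interval -0.68 to -0.02) was not called (limma adjusted p = 0.174), but it was without WT NMDA replicate 1 or 2 (limma adjusted p = 0.0239 and 0.0231). *E230016M11Rik*, which overlaps *Gadd45a* on the other strand, was listed at 5.13 to 15.56 FPKM, and the sources do not state that reads were counted by strand, so whether reads of the pair were told apart is not known. The same holds for *Cdkn1a* and *AC167363.2*, whose level was not analysed here, and no other gene of the annotation overlaps any of the 10.

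**Figure D2:**
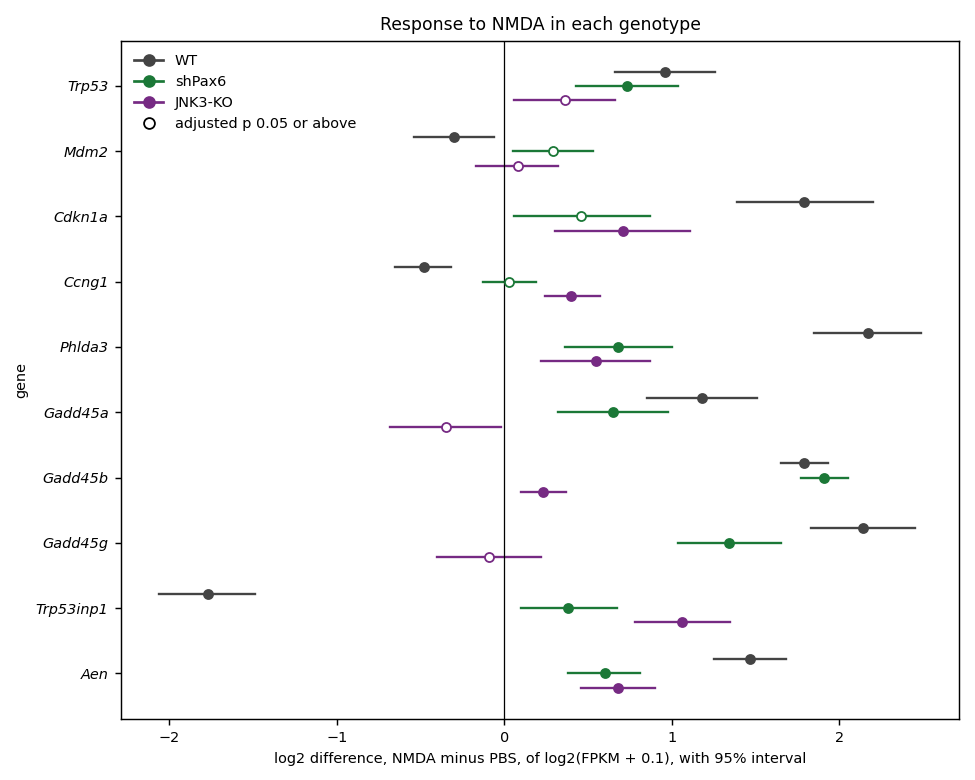
Log2 difference of NMDA minus PBS libraries (x axis, on log2(FPKM + 0.1)) for each gene (y axis) in WT, shPax6 and JNK3-KO retinas. Bars are 95% intervals of the fit and open points have an adjusted p of 0.05 or above. *Gadd45b* was at 1.79 in WT, 1.91 in shPax6 and 0.23 in JNK3-KO retinas.

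The summed level of the *Gadd45* genes, which FPKM allow because they are scaled to length, was 84.5 and 89.4 FPKM in WT PBS and 302.5 and 274.2 FPKM in WT NMDA libraries. In shPax6 the sums were 76.5 and 79.4 FPKM and then 211.6 and 213.0 FPKM, whereas in JNK3-KO they were 98.8 and 96.3 FPKM and then 96.4 and 99.3 FPKM. *Gadd45b* made up 44.0% to 65.1% of the sum and was the largest part in every library. *Gadd45g* was 24.5% and 27.4% of the sum in the WT NMDA libraries and 13.6% to 19.9% in the other 10. *Gadd45a* was 17.4% to 26.3% of it in the NMDA libraries and 28.8% to 39.0% in the PBS libraries.

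**Figure D3:**
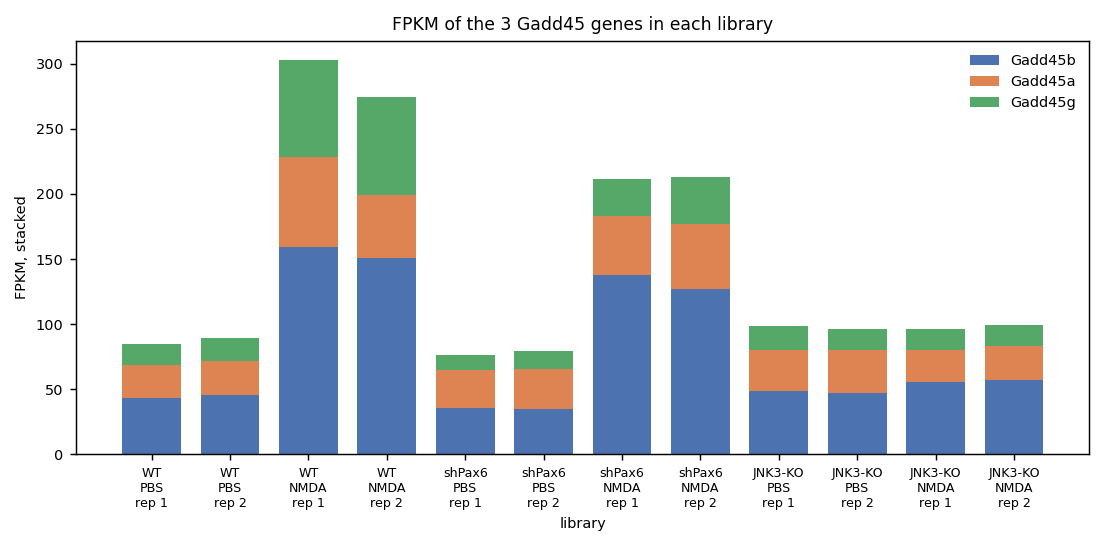
FPKM of *Gadd45b*, *Gadd45a* and *Gadd45g* stacked (y axis) in each of the 12 libraries (x axis). Bars are not rescaled to equal library totals. The 4 NMDA libraries of WT and shPax6 sum to 211.6 to 302.5 FPKM and the other 8 to 76.5 to 99.3 FPKM.

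Markers of other cells moved beside these genes. The summed FPKM of 9 neutrophil markers was 212 to 235 in WT PBS and 1952 to 1988 in WT NMDA libraries, 5.16 to 6.55 and then 66.4 to 73.0 in shPax6, and 156 to 170 and then 13.1 to 14.2 in JNK3-KO. In WT 5 of the 9 were higher with NMDA without overlap and *Csf3r* was lower, in shPax6 5 were higher and none lower, and in JNK3-KO none were higher and 6 lower. Between 2 and 4 of the 9 were at 0 in both libraries of each JNK3-KO and shPax6 group, and none in the WT groups. The 11 microglia and macrophage markers summed to 58.5 to 62.1 and then 116 to 123 FPKM in WT, to 139 to 150 and then 467 to 480 in shPax6, and to 66.1 to 70.7 and then 63.1 to 67.5 in JNK3-KO. In WT that sum joins 5 markers that were higher with NMDA without overlap (*Aif1*, *Cd68*, *C1qa*, *C1qb* and *Trem2*) and 6 that were lower, *Csf1r*, *Cx3cr1*, *P2ry12*, *Tmem119*, *Itgam* and *Ptprc*. *Cd68* was at 7.25 and 8.17 FPKM in WT PBS against 33.6 and 35.35 FPKM in WT NMDA libraries, and *Itgam* at 8.52 and 8.9 against 4.23 and 3.2 FPKM. In shPax6 8 of the 11 were higher and none lower, and in JNK3-KO 3 were higher and 6 lower. The 8 Müller glia markers ran from 679 to 681 down to 404 to 406 FPKM in WT, from 833 to 849 to 753 to 767 in shPax6 and from 721 to 733 to 625 to 640 in JNK3-KO. *Glul* and *Dkk3*, the most abundant of the 8 in WT PBS, were lower with NMDA in all 3 genotypes, whereas *Rlbp1*, *Slc1a3*, *Aqp4*, *Sox9* and *Kcnj10* were higher in JNK3-KO and *Slc1a3*, *Sox9*, *Kcnj10* and *Gfap* in shPax6, without overlap. *Rlbp1*, a retinoid-binding protein gene, was at 64.01 and 63.18 FPKM in JNK3-KO PBS against 108.22 and 114.61 FPKM in JNK3-KO NMDA libraries. In WT 6 of the 8 were lower and *Rlbp1* was higher. Sums of 5 erythrocyte markers were 97.3 to 107 and then 613 to 650 FPKM in WT, 28.7 to 50.3 and then 120 to 126 in shPax6, and 123 to 126 and then 69.4 to 79.7 in JNK3-KO. The 5 lens and 5 RPE markers summed to 33.0 to 111 and 3.52 to 68.8 FPKM over all libraries, and 7 markers of proliferating cells to 6.41 to 25.7 FPKM, the highest in shPax6 NMDA. RPE sums were 51.2 to 52.5 FPKM in shPax6 PBS and 3.52 to 6.17 in shPax6 NMDA libraries. They were 48.2 to 55.9 and then 63.6 to 68.8 in WT, where *Ttr* was higher and the other 4 lower. In JNK3-KO they were 34.9 to 41.2 and then 43.3 to 45.3. Lens sums were higher with NMDA in all 3 genotypes. These counts of markers without overlap stand without the share over all genes, which was not counted. The part of these cells in the levels of the 10 genes was not tested.

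The difference between responses was tested directly. Between WT and shPax6 the response was larger in WT for *Cdkn1a*, *Phlda3*, *Gadd45g* and *Aen* and lower for *Mdm2*, *Ccng1* and *Trp53inp1*, 7 of the 10 genes, against 49.7% of all genes called, 18.3% as higher and 31.4% as lower. The largest were *Trp53inp1* with -2.15 (SE 0.18, limma adjusted p = 2.13e-05), *Phlda3* with 1.49 (SE 0.20, limma adjusted p = 0.000326) and *Cdkn1a* with 1.33 (SE 0.25, limma adjusted p = 0.00213). *Aen* had a difference of 0.87 and *Gadd45g* one of 0.79 (limma adjusted p = 0.000733 and 0.00771), and *Mdm2* and *Ccng1* had -0.59 and -0.51 (limma adjusted p = 0.0101 and 0.00286). The differences for *Trp53* (0.23, 95% interval -0.20 to 0.66), *Gadd45a* (0.53, 95% interval 0.06 to 1.00) and *Gadd45b* (-0.12, 95% interval -0.31 to 0.08) were not called (limma adjusted p = 0.339, 0.0586 and 0.278). After the length correction *Mdm2*, *Ccng1* and *Gadd45g* lost the call at -0.26, 0.18 and 0.14, and *Gadd45b* gained one at -0.61 (limma adjusted p = 0.000668). On TPM *Gadd45g* and *Aen* lost the call at 0.27 and 0.35, *Gadd45b* gained one at -0.64 and *Trp53* turned to -0.29, where the median of all genes moved from -0.28 to -0.80. With quantile normalization *Gadd45g* lost it at 0.55 and *Gadd45b* gained it at -0.68. *Gadd45a* was called without WT NMDA replicate 2, at 0.80 (limma adjusted p = 0.00118).

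Between WT and JNK3-KO the response was larger in WT for 7 genes and lower for 2, against 51.4% of all genes called, 23.5% as higher and 27.9% as lower. The *Gadd45* genes differed by 2.23 (*Gadd45g*, SE 0.19), 1.56 (*Gadd45b*, SE 0.09) and 1.54 (*Gadd45a*, SE 0.21), with limma adjusted p = 1.58e-05, 1.38e-06 and 0.000230. *Phlda3*, *Cdkn1a*, *Aen* and *Trp53* differed by 1.63, 1.09, 0.79 and 0.60 (limma adjusted p = 0.000142, 0.00561, 0.00106 and 0.0245). *Trp53inp1* and *Ccng1* differed by -2.84 and -0.88 (limma adjusted p = 2.74e-06 and 9.38e-05), and *Mdm2* by -0.38 (95% interval -0.72 to -0.04, limma adjusted p = 0.0639). After the length correction *Trp53*, *Ccng1* and *Gadd45a* lost the call at 0.30, -0.22 and 0.54. On TPM *Trp53*, *Cdkn1a* and *Aen* lost it at 0.01, 0.50 and 0.20 and *Mdm2* gained one at -0.97, where the median of all genes moved from -0.03 to -0.62. The call for *Trp53* was also lost without either WT PBS or JNK3-KO PBS library, WT NMDA replicate 1 or JNK3-KO NMDA replicate 2 (0.44 to 0.63). *Mdm2* was called without WT NMDA replicate 2 or either shPax6 PBS library (-0.48 to -0.38).

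The shPax6 and JNK3-KO responses were set against each other in a comparison added after the data were seen, which uses none of the WT libraries in its difference. The *Gadd45* genes rose more in shPax6, by 1.68 for *Gadd45b* (SE 0.09, limma adjusted p = 7.49e-06), 1.44 for *Gadd45g* (SE 0.19, limma adjusted p = 0.00138) and 1.01 for *Gadd45a* (SE 0.21, limma adjusted p = 0.0108). *Trp53inp1* and *Ccng1* had lower responses in shPax6, with differences of -0.68 and -0.37 (limma adjusted p = 0.0298 and 0.0366). That is 5 of the 10 genes, against 17.7% of all genes called, 12.1% as higher and 5.62% as lower. The other 5 were not called, with 95% intervals of -0.06 to 0.80 for *Trp53*, -0.13 to 0.56 for *Mdm2*, -0.81 to 0.33 for *Cdkn1a*, -0.32 to 0.59 for *Phlda3* and -0.39 to 0.22 for *Aen*. The value for *Gadd45a* was 0.63 after the length correction and 0.95 without JNK3-KO NMDA replicate 1, and neither was called (limma adjusted p = 0.0766 and 0.0519). That for *Trp53inp1* was -0.51 after the length correction (limma adjusted p = 0.0938). *Ccng1* lost the call in 7 and *Trp53inp1* in 6 of the 12 fits without 1 library (-0.38 to -0.32 and -0.72 to -0.58).

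**Figure D4:**
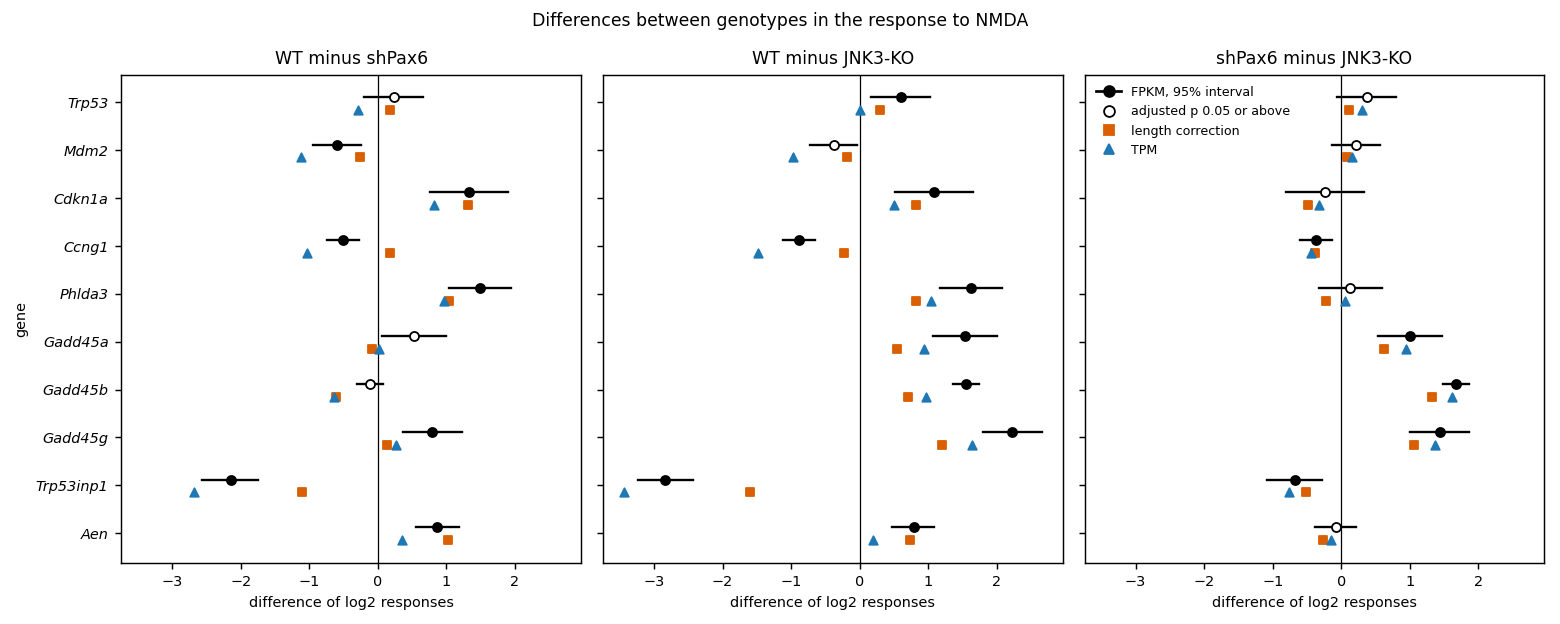
Difference of log2 responses to NMDA (x axis) for each gene (y axis) between pairs of genotypes. Black points with 95% intervals are from FPKM, open where the adjusted p is 0.05 or above, and squares and triangles give the value after the length correction and on TPM. *Ccng1* between WT and shPax6 was -0.51 on FPKM, 0.18 after the length correction and -1.04 on TPM.

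In JNK3-KO retinas several calls for the NMDA response changed in the fits that left out 1 library. Without a JNK3-KO or a WT PBS library calls over all genes became fewer as well. Without a WT NMDA or shPax6 NMDA library they did not become fewer. *Phlda3* nevertheless lost its call in each of those fits, and *Cdkn1a* without either WT NMDA library. *Trp53inp1* and *Aen* stayed called in all 12 such fits, at 1.02 to 1.11 and 0.62 to 0.74. *Cdkn1a* lost the call in 7 of them (0.51 to 0.73), *Phlda3* in 10 (0.47 to 0.62) and *Ccng1* in 4 (0.39 to 0.41).

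Under PBS, shPax6 retinas had more *Cdkn1a*, *Phlda3* and *Trp53inp1* and less *Gadd45b* than WT retinas, 4 of the 10 genes, against 16.5% of all genes called, 5.36% as higher and 11.2% as lower. The difference was 1.62 for *Cdkn1a* (SE 0.18, limma adjusted p = 0.000444), 0.56 for *Trp53inp1* (SE 0.13, limma adjusted p = 0.0165), 0.50 for *Phlda3* (SE 0.14, limma adjusted p = 0.0438) and -0.35 for *Gadd45b* (SE 0.06, limma adjusted p = 0.00490). This comparison shares its PBS libraries with the NMDA responses, so a high PBS value of *Cdkn1a* enters both. *Phlda3* lost the call in 11 of the 12 fits without 1 library, that is in all but the one without shPax6 PBS replicate 2 (0.29 to 0.59), and on TPM (0.47, limma adjusted p = 0.0530). *Trp53inp1* lost it without either WT PBS library or shPax6 PBS replicate 2 (0.45 to 0.59). *Gadd45g*, at -0.42 and not called (limma adjusted p = 0.0692), was called without shPax6 PBS replicate 2 or either shPax6 NMDA library (-0.56 to -0.42). Between JNK3-KO and WT retinas under PBS limma called none of the 10 genes, against 1.51% of all genes, 1.10% as higher and 0.407% as lower, with an unadjusted p under 0.05 for 4 of them. These were *Mdm2* (0.30), *Gadd45a* (0.35) and *Aen* (0.24), higher in JNK3-KO, and *Trp53inp1* (-0.36), lower. The settings given in the closing section also called 0.

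The transcript table listed 49 transcripts of the 10 genes, of which 33 were tested. The transcript with the highest mean was protein coding for every gene and made up 60.8% (*Mdm2-201*) to 100% (*Ccng1-201*) of the gene's mean FPKM. Of these 10 leading transcripts 10 were called after NMDA in WT, in the direction of the gene, against 35.2% of all 49940 tested transcripts. In shPax6 3 were called, *Gadd45b-201*, *Gadd45g-201* and *Phlda3-201*, against 8.34%, and in JNK3-KO limma called none, against 1.31%. Under PBS *Cdkn1a-201* (1.62) and *Gadd45b-201* (-0.41) were called between shPax6 and WT, against 2.73%, and none between JNK3-KO and WT, against 0.186%. Between responses 7 leading transcripts were called for WT against shPax6, 9 for WT against JNK3-KO and 2 for shPax6 against JNK3-KO. The shares of all tested transcripts were 23.8%, 25.7% and 3.20%. The leading transcripts were picked as the most abundant of their genes, whereas the shares over all tested transcripts also cover minor ones. These counts and shares are therefore not like for like. Most of the other tested transcripts of the 10 genes were not called after NMDA in WT. *Gadd45b-201* was at 42.59 and 44.01 FPKM in WT PBS against 154.58 and 147.86 FPKM in WT NMDA libraries, and at 45.92 and 44.72 FPKM and then 52.96 and 53.83 FPKM in JNK3-KO.

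The leading transcript of *Mdm2* gave way to another one in WT NMDA libraries. *Mdm2-201*, a protein-coding transcript, was at 15.92 and 16.41 FPKM in WT PBS against 5.06 and 0.96 FPKM in WT NMDA libraries. *Mdm2-209*, annotated as a target of nonsense-mediated decay, was listed at 0 in both WT PBS libraries against 10.16 and 16.31 FPKM in the WT NMDA libraries. In shPax6 *Mdm2-209* was at 1.25 and 4.42 FPKM with PBS against 0 with NMDA, and in JNK3-KO it was between 0 and 0.82 FPKM. *Mdm2-201* fell in WT (log2 difference -2.80, SE 0.59, limma adjusted p = 0.00727), and *Mdm2-209* rose (limma adjusted p = 0.00224). The transcripts share most of their sequence, so how RSEM divided reads between them is uncertain, and no junction reads were used here.

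**Figure D5:**
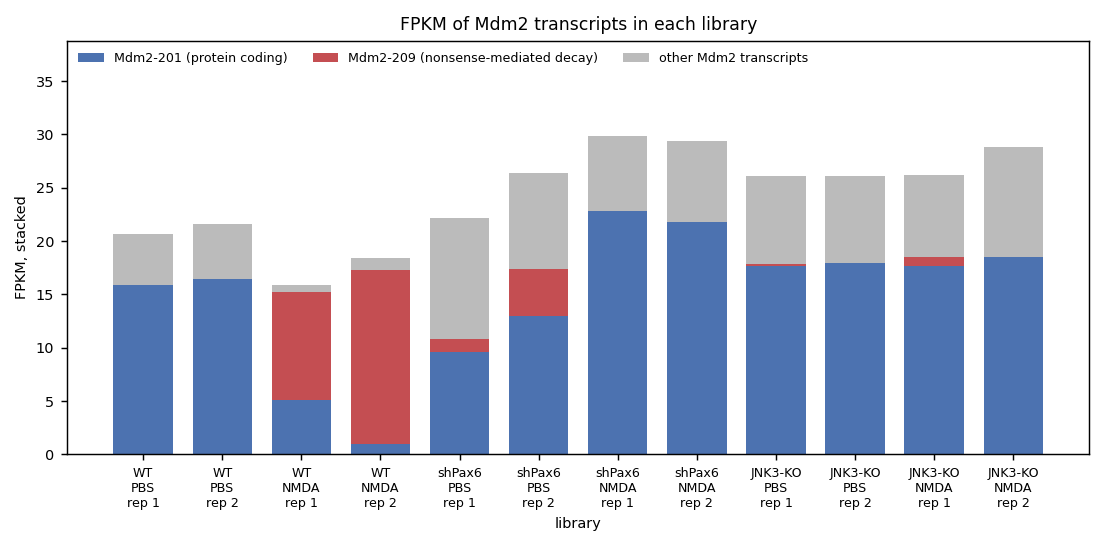
FPKM of *Mdm2* transcripts stacked (y axis) in each of the 12 libraries (x axis), with *Mdm2-201*, *Mdm2-209* and all others. *Mdm2-209* is at 10.16 and 16.31 FPKM in the WT NMDA libraries and at 4.42 FPKM or below in the other 10.

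The order of the levels differed between conditions. In WT PBS libraries the means, with SD over 2 libraries, ran from 44.71 ± 1.63 FPKM for *Gadd45b* through 31.68 ± 0.658 for *Ccng1*, 25.31 ± 0.622 for *Gadd45a*, 21.14 ± 0.679 for *Mdm2* and 16.92 ± 1.28 for *Gadd45g* to 13.03 ± 0.0707 for *Aen*. Below these were *Trp53* with 10.02 ± 0.332 FPKM, *Phlda3* with 8.675 ± 0.757, *Trp53inp1* with 6.765 ± 0.177 and *Cdkn1a* with 4.220 ± 0.552, and no neighbours in this order overlapped. In WT NMDA libraries the order was *Gadd45b* (155.1 ± 5.57 FPKM), *Gadd45g* (74.75 ± 0.707), *Gadd45a* (58.52 ± 15.2), *Phlda3* (39.38 ± 1.55), *Aen* (36.19 ± 1.88) and *Ccng1* (22.68 ± 1.05). It ended with *Trp53* (19.71 ± 2.58 FPKM), *Mdm2* (17.18 ± 1.79), *Cdkn1a* (14.82 ± 0.587) and *Trp53inp1* (1.910 ± 0.0990), where *Trp53* and *Mdm2* overlapped. *Cdkn1a* had the lowest mean of the 10 in JNK3-KO PBS libraries too, where it overlapped *Trp53inp1*, whereas in shPax6 PBS libraries *Trp53* had the lowest mean.

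Across the 12 libraries, which share groups of 2 and the length trend of WT NMDA, levels of the *Gadd45* genes were alike, with Pearson's r of 0.924 between *Gadd45b* and *Gadd45g*, 0.876 between *Gadd45a* and *Gadd45g* and 0.866 between *Gadd45a* and *Gadd45b* on log2(FPKM + 0.1). This was not particular to the family, as *Phlda3* had r of 0.879 with *Gadd45g*, 0.868 with *Gadd45b* and 0.820 with *Gadd45a*. *Cdkn1a* had r of 0.515 to 0.696 with the 3 genes, and *Mdm2*, *Ccng1* and *Trp53inp1* had negative r with them. *Trp53* was most alike to *Aen* among the 10 genes (r = 0.939), and *Ccng1* to *Trp53inp1* (r = 0.846). Among 12369 genes with a mean above 1 FPKM in all 6 groups, those most like *Gadd45b* were *Tsc22d4* (r = 0.986) and *Nupr1* (r = 0.985), and those most like *Gadd45g* were *Cstb* (r = 0.989) and *Rnaset2b* (r = 0.985). For *Gadd45a* they were *Cebpd* (r = 0.964) and *Rab5c* (r = 0.954), for *Cdkn1a* *Cotl1* (r = 0.959) and *Cyb5r1* (r = 0.955), and for *Phlda3* *Npm3* (r = 0.987) and *Slc25a39* (r = 0.982). *Trp53* was most like *Ddost* (r = 0.973) and *Pabpc1* (r = 0.962), *Aen* most like *Ppp1r14b* (r = 0.982) and *Mthfd1* (r = 0.979), and *Mdm2* most like *Poglut1* (r = 0.971) and *Taco1* (r = 0.964). *Ccng1* was most like *Thap12* (r = 0.979) and *Tns3* (r = 0.968), and *Trp53inp1* most like *Rbm26* (r = 0.991) and *AW549877* (r = 0.989).

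Of 18 genes that regulate p53, 15 were tested, and in WT 3 rose and 9 fell after NMDA, beside 26.0% and 33.8% of all genes, with a median log2 difference of -0.85. After the length correction 5 rose and 5 fell with a median of -0.03, beside 23.8% and 22.1% of all genes. *Rpl11* and *Rpl5*, ribosomal proteins that can bind and inhibit MDM2, rose most (2.23 and 1.53, limma adjusted p = 2.09e-08 and 9.96e-07). *Rpl11* was at 332.02 and 359.6 FPKM in WT PBS against 1594.18 and 1645.51 FPKM in WT NMDA libraries. *Hipk2*, a kinase that phosphorylates p53, and *Atm*, the kinase that signals DNA breaks, had the largest falls under the naming rule, which leaves out genes averaging under 1 FPKM in either group (-2.45 and -1.92, limma adjusted p = 5.84e-07 and 0.0323). The call for *Atm* was lost after the length correction (-0.66, limma adjusted p = 0.456) and with quantile normalization (-1.57, limma adjusted p = 0.0748). *Chek1*, a checkpoint kinase gene outside that rule and named after its values were seen, had a difference of -2.15 (SE 0.78, limma adjusted p = 0.0389). It was at 1.1 and 0.59 FPKM in WT PBS against 0.02 and 0.25 FPKM in WT NMDA libraries. So near the floor, the size of its fall depends on the 0.1 added before the log. *Chek1* passed the filter only through the shPax6 NMDA libraries, and it is among the 5 regulators that rose in shPax6. *Hipk2* went from 14.71 and 13.06 FPKM to 2.38 and 2.55 FPKM in WT and rose from 7.69 and 8.38 FPKM to 14.32 and 14.26 FPKM in JNK3-KO. In shPax6 5 rose and 2 fell, beside 19.1% and 11.0% of all genes, with *Pml* (0.69) and *Rpl11* (0.52) up and *Hipk2* (-0.52) and *Ppm1d*, a phosphatase of p53 (-0.45), down. With quantile normalization 2 rose and 3 fell, beside 13.1% and 16.6%, and *Pml* lost its call (0.51, limma adjusted p = 0.0796). In JNK3-KO *Hipk2* (0.82) and *Mdm4*, a relative of MDM2 that inhibits p53 (0.38), rose and none fell, beside 4.33% and 6.10% of all genes, and *Mdm4* was not called after the length correction (0.27, limma adjusted p = 0.134). The medians were 0.28 in shPax6 and 0.12 in JNK3-KO, beside 0.10 and -0.01 over all genes.

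Of 34 other p53 target genes 32 were tested. In WT 9 rose and 5 fell, on TPM 6 rose and 15 fell, and after the length correction 12 rose and 2 fell, beside 26.0% and 33.8%, 13.6% and 50.2%, and 23.8% and 22.1% of all genes. *Cd82*, which encodes a tetraspanin, and *Bax*, the pro-apoptotic BCL2 relative that the study paired with *Gadd45a*, rose most (1.81 and 1.62, limma adjusted p = 3.52e-06 and 7.07e-06). After the length correction they were 1.46 and 0.58 (limma adjusted p = 4.11e-05 and 0.00399). *Bax* was at 34 and 41.09 FPKM in WT PBS against 117.8 and 112.67 FPKM in WT NMDA libraries, and at 44.64 and 45.3 FPKM and then 47.39 and 41.82 FPKM in JNK3-KO, which overlap. *Rrm2b*, a ribonucleotide reductase subunit, and *Polk*, a translesion polymerase, fell most (-1.55 and -1.54, limma adjusted p = 0.00796 and 0.000412), and *Rrm2b* lost the call after the length correction (-0.95, limma adjusted p = 0.0808). In shPax6 12 rose and none fell, beside 19.1% and 11.0% of all genes. With quantile normalization these counts were 9 and 2, beside 13.1% and 16.6%, and after the length correction 9 and 1, beside 13.7% and 15.2%. The 12 include *Eda2r* and *Pmaip1*, which averaged above 1 FPKM only in NMDA groups in which they are high. They passed the filter on low values through that rise, so the count is not independent of the filter. *Tap1* (1.64), a peptide transporter, and *Steap3* (1.62), a metalloreductase, were the largest under the naming rule. In JNK3-KO 3 rose and 1 fell, against 4.33% and 6.10%, among them *Steap3* (1.01) and *Ephx1* (0.83), an epoxide hydrolase, up and *Gls2* (-1.18), a glutaminase, down. The median log2 differences of the list were 0.05 in WT, 0.41 in shPax6 and 0.10 in JNK3-KO, beside -0.09, 0.10 and -0.01 over all genes. Between responses 3 were higher and 6 lower for WT minus shPax6, beside 18.3% and 31.4% of all genes. The counts were 5 and 5 for WT minus JNK3-KO, beside 23.5% and 27.9%, and 6 and 0 for shPax6 minus JNK3-KO, beside 12.1% and 5.62%. Under PBS 5 were higher and 3 lower in shPax6 than in WT, beside 5.36% and 11.2%. Between JNK3-KO and WT under PBS limma called none, beside 1.10% and 0.407% of all genes.

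All 17 genes for partners of GADD45 proteins were tested, and in WT 6 rose and 6 fell, beside 26.0% and 33.8% of all genes. With the length correction 5 rose and 5 fell, beside 23.8% and 22.1%, and on TPM 2 rose and 7 fell, beside 13.6% and 50.2%. The median was -0.05 in WT, 0.12 in shPax6 and 0.07 in JNK3-KO. *Mapk13*, a p38 kinase, and *Gadd45gip1*, a mitochondrial protein that binds GADD45, rose most (2.42 and 1.87, limma adjusted p = 0.00166 and 2.03e-06). *Mapk10* and *Mapk8*, which encode JNK3 and JNK1, fell most (-2.65 and -1.83, limma adjusted p = 0.000180 and 2.00e-06). *Mapk8* was at 25.76 and 27.06 FPKM in WT PBS against 6.62 and 8.18 FPKM in WT NMDA libraries, and between 24.03 and 33.5 FPKM in the other 8. In shPax6 *Map2k3* (0.92) and *Mapk11* (0.86), a kinase of the p38 pathway and a p38 kinase, were among 3 that rose, and *Mapk9*, which encodes JNK2, was the 1 that fell (-0.46), beside 19.1% and 11.0% of all genes. *Map2k3* was not called after the length correction (0.75, limma adjusted p = 0.0592). In JNK3-KO limma called none of the 17, beside 4.33% of all genes as higher and 6.10% as lower. With quantile normalization 1 was called as higher, beside 5.35% and 5.29%.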

How the data were processed

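RNA-seq of poly(A) RNA was read from 12 libraries of mouse retina, 6 groups of 2. Per the labels and the study's methods, the authors aligned paired reads to GRCm38.p6 with STAR 2.7.1a, estimated abundance with RSEM 1.3.3, and deposited the resulting FPKM for genes and for transcripts. The authors tested with edgeR 3.36.0 in R 4.1.0. The reads behind an FPKM value are not known here, so no counting interval is given, and precision was judged from the libraries. Over genes, paired libraries of the same group differed by a median of 0.11 to 0.25 on the log2 scale. All per-sample columns were mapped to samples by their names.

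Values were put on log2(FPKM + 0.1). Features averaging over 1 FPKM in any group were tested, that is 16471 of 55487 genes and 49940 transcripts. All libraries entered 1 limma 3.58.1 fit with a mean per group, which leaves 6 residual degrees of freedom, and the variances were moderated with a trend on level (R 4.3.3). The p-values were Benjamini-Hochberg adjusted over all features tested, and an adjusted p under 0.05 was called. Fold changes on this scale understate those of low genes. Log2 differences are NMDA minus PBS, or the first genotype minus the second. The length correction removed a lowess trend (span 0.3) of each library on spliced length, taken from GENCODE M21, which matched 99.38% of genes. The code was tested on simulated data. Python 3.11.15, pandas 2.3.3 and matplotlib 3.10.9 were used for the rest.

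The members and lists were chosen with earlier results of these data known. From each list and response, the named genes are, where there are so many, the top 2 called genes in each direction by size, provided that both group means exceed 1 FPKM and the libraries do not overlap. *Cdkn2a*, *Trp63*, *Trp73* and *Gtse1* did not pass the filter, and *Ddit3* and *Lim2*, whose names stand on more than 1 row, were not used. The comparison of the shPax6 and JNK3-KO responses, the promoter search and the *Gadd45* shares were added after the data were seen. Alternatives were another pseudocount, no filter, TPM, quantile normalization, the length correction, the spread of the compared groups alone, no trend, a replicate block, the study's p and fold thresholds without its condition on the variance-mean ratio, the transcript table and each library left out.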

Additional observations from a re-analysis of the deposited data

Results flagged for a closer look

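The differences between responses to NMDA that passed the test of the difference itself are listed here because 2 genotypes differed under the same contrast. WT minus shPax6 gave 7: *Trp53inp1* -2.15, *Mdm2* -0.59, *Ccng1* -0.51, *Gadd45g* 0.79, *Aen* 0.87, *Cdkn1a* 1.33 and *Phlda3* 1.49 on the log2 scale. WT minus JNK3-KO gave 9, with *Trp53inp1* at -2.84, *Ccng1* at -0.88, *Trp53* at 0.60, *Aen* at 0.79, *Cdkn1a* at 1.09, *Gadd45a* at 1.54, *Gadd45b* at 1.56, *Phlda3* at 1.63 and *Gadd45g* at 2.23. These 2 comparisons share the WT libraries, whose NMDA response followed transcript length. The shPax6 minus JNK3-KO comparison gave 5, namely *Trp53inp1* at -0.68, *Ccng1* at -0.37, *Gadd45a* at 1.01, *Gadd45g* at 1.44 and *Gadd45b* at 1.68.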

How the results depend on the processing

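Of the values of single genes under the alternatives, 634 kept their direction and side of the threshold, 56 lost the call, 8 gained one and 22 changed sign. With the length correction, with or without the replicate block, *Ccng1* turned to 0.13 in the WT response, -0.04 in shPax6 and 0.18 in WT minus shPax6. In the same fits *Gadd45g* turned to 0.04 in JNK3-KO and -0.10 under PBS in JNK3-KO minus WT, *Gadd45a* to -0.09 in WT minus shPax6, *Gadd45b* to -0.02 under PBS in JNK3-KO minus WT and *Phlda3* to -0.22 in shPax6 minus JNK3-KO. On TPM *Ccng1* turned to -0.02 in shPax6, *Trp53* to -0.29 in WT minus shPax6, and *Ccng1* and *Gadd45g* both to -0.03 under PBS in JNK3-KO minus WT. Quantile normalization gave *Ccng1* -0.10 in shPax6 and -0.01 under PBS in JNK3-KO minus WT. The cause was not tested.

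Counts of called genes moved by over 1.5 times as follows, with counts over all genes after them where these were made. The NMDA response in shPax6 gave 2 with the spread of the compared groups alone and 2 under the study's p and fold thresholds (an unadjusted p under 0.05 and an absolute log2 difference above 1, with a group mean above 1 FPKM and without the study's condition on the variance-mean ratio), and 3 in the transcript table. In JNK3-KO it gave 3 with no filter, 3 with no intensity trend, 1 under those thresholds and 0 in the transcript table. WT minus shPax6 gave 3 under those thresholds. Under PBS, shPax6 minus WT gave 1 with its own spread, 1 under those thresholds and 2 in the transcript table. shPax6 minus JNK3-KO gave 3 with the length correction, 3 with the replicate block and that correction, 3 under those thresholds and 2 in the transcript table. Calls over all genes moved too. With the spread of the compared groups alone, the shPax6 response gave 675 higher and 301 lower, against 3151 and 1816 as reported. With that spread, shPax6 minus WT under PBS gave 286 and 601, against 883 and 1841. The JNK3-KO response gave 595 and 781 with no intensity trend, against 713 and 1005. For shPax6 minus JNK3-KO the length correction gave 1177 and 943, against 1987 and 926.

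Leaving out each library in turn gave 9 to 10 calls for the response in WT, 5 to 8 in shPax6, 2 to 6 in JNK3-KO, 7 to 8 for WT minus shPax6, 8 to 10 for WT minus JNK3-KO, 2 to 4 for shPax6 minus WT under PBS and 2 to 5 for shPax6 minus JNK3-KO. JNK3-KO minus WT under PBS gave 0 under each alternative. In these fits the group with 1 library left is assumed to vary like the others. Values that crossed 0 were *Ccng1* in shPax6 (-0.03 to 0.09), *Aen* (-0.05 to 0.15) under PBS in shPax6 minus WT, *Gadd45g* (-0.05 to 0.12) under PBS in JNK3-KO minus WT, and *Aen* (-0.18 to 0.02) and *Phlda3* (-0.07 to 0.34) in shPax6 minus JNK3-KO.

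Deviations of same-numbered libraries from their group means correlated by -0.10 to 0.09, so the libraries share only a number. The replicate block gave 10, 7 and 5 calls for the responses in WT, shPax6 and JNK3-KO, 7, 10 and 5 for WT minus shPax6, WT minus JNK3-KO and shPax6 minus JNK3-KO, and 4 and 0 under PBS. The depth behind each FPKM value is unknown, and 2 libraries a group limit the precision.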

Other observations

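Values of some p53 target genes with a known part in apoptosis are given here, chosen after they were seen and not as a tested group. In the shPax6 response *Perp* (-0.29), *Pidd1* (1.19), *Ei24* (0.16) and *Apaf1* (0.66) were not called (limma adjusted p = 0.840, 0.0569, 0.104 and 0.105), and *Bax* rose by 0.42 there (limma adjusted p = 0.0404) against 1.62 in WT. The WT rise of *Bax* was 0.58 after the length correction, 1.05 on TPM and 1.08 with quantile normalization, so the size of that contrast depends on the scaling. *Bbc3*, which encodes the BH3-only protein PUMA, was listed at 3.86 and 2.56 FPKM in the shPax6 PBS libraries, against 9.68 and 7.16 FPKM after NMDA (log2 difference 1.38, SE 0.29, limma adjusted p = 0.00678). In WT it was 2.32 and 1.47 FPKM against 2.13 and 1.96 FPKM, and in JNK3-KO 2.43 and 2.48 FPKM against 1.99 and 1.63 FPKM. The WT response minus the shPax6 response was -1.24 (limma adjusted p = 0.0324), and the shPax6 response minus the JNK3-KO response was 1.80 (limma adjusted p = 0.0174). *Pmaip1*, which encodes NOXA, was at or below 2.13 FPKM in every library, and its shPax6 difference of 2.79 and WT minus shPax6 difference of -3.18 (limma adjusted p = 0.0239 and 0.0373) rest on a value of 0.0 in 1 PBS library. *Eda2r*, a TNF receptor family gene, had 0.35 and 0.09 FPKM against 1.19 and 2.1 FPKM in shPax6 (2.53, limma adjusted p = 0.0152). It was also higher in JNK3-KO, at 0.29 and 0.42 against 0.88 and 1.34 FPKM, but not in WT, at 0.13 and 0.45 against 0.13 and 0.11 FPKM. *Tnfrsf10b*, of the same list, had 0.69 and 0.25 against 2.32 and 1.68 FPKM in shPax6 and 0.49 and 0.63 against 1.09 and 1.42 FPKM in JNK3-KO. In WT it overlapped, at 0.65 and 0.41 against 0.53 and 0.89 FPKM. *Eda2r* and *Tnfrsf10b* averaged above 1 FPKM only in the NMDA libraries of shPax6 and JNK3-KO, and *Pmaip1* only in those of shPax6. They thus passed the filter on low values through the groups in which they are high, so their calls are not independent of that filter.

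*Fas*, which encodes a death receptor, differed in direction between genotypes. It had 1.57 and 1.37 FPKM against 3.11 and 4.24 FPKM in shPax6 (1.25, limma adjusted p = 0.0206) and 4.41 and 4.0 FPKM against 6.5 and 11.72 FPKM in WT (1.04, limma adjusted p = 0.0235). In JNK3-KO it had 3.92 and 4.33 FPKM against 1.43 and 2.53 FPKM, a difference that was not called (-1.07, limma adjusted p = 0.0784), and the shPax6 minus JNK3-KO difference of 2.33 was called (limma adjusted p = 0.0105). Microglia and macrophage markers summed to 139 to 150 FPKM in shPax6 PBS and 467 to 480 FPKM in shPax6 NMDA libraries, where 8 of the 11 were higher without overlap. The share of all genes without overlap was not counted, and the part of these markers' cells in these values was not tested.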
